A study of Mus musculus with 15 samples.

Results

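Th1 cultures activated by plate-bound antibodies were compared with Th1 cultures activated by presented antigen, using 4 of the 15 arrays of the series, 2 for each activation. They were chosen by their labels alone. Both groups started from naive CD4 cells of spleen and lymph nodes of 3A9 mice, whose transgenic receptor recognises hen egg lysozyme (HEL), sorted by the clonotypic antibody 1G12 and polarised with IL-12 at 10 ng/ml and anti-IL-4 at 10 µg/ml. In the group called HA, HEL at 2 µg/ml was presented by irradiated (30 Gy) splenocytes of wild-type mice. In the group called PBAB, the stimulus came from plates coated with anti-CD28 (10 µg/ml) and anti-CD3 (1 µg/ml), with no splenocytes. RNA was taken after 4 days, and 500 ng was amplified and hybridised to each array. A single array labelled APC alone, from the Th1 part of the experiment, served only to mark genes with a high signal in it, and its content is not described further in the labels. The labels call the replicates biological without naming animals or cultures, so the p-values reflect only how far these samples spread, which may be technical.

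Th1 cells arise when naive CD4 T cells receive signals from their antigen receptor and costimulatory receptors in the presence of IL-12. IL-12 acts through Stat4, the transcription factor T-bet (Tbx21) fixes the lineage, and the main product is interferon-gamma, which acts on the T cells themselves and on other cells. Antibodies against CD3 and CD28 replace the peptide and the costimulatory ligands of an antigen-presenting cell, but bring none of its adhesion molecules, cytokines or other surface ligands.

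All values below are log2 RMA intensities of 1 probe set per gene, given as replicate 1 and then replicate 2, and every difference is PBAB minus HA on the log2 scale. The 4 arrays had medians of 5.45 to 5.54, and their interquartile range ran from 3.02 (PBAB 2) to 3.46 (HA 1). The difference between 3' and 5' actin control probe sets, a sign of RNA quality, was 0.05 and 0.09 in HA and 0.25 and 0.28 in PBAB, and 0.99 on the APC alone array. The 18S control signal was 10.67 and 9.85 in HA and 11.45 and 10.54 in PBAB. The part of these control values in the results was not tested. All 4 arrays carried the T cell genes that the labels imply: Cd3e was at 11.55 and 10.69 in HA and 10.90 and 10.26 in PBAB, and Cd4 at 10.22 and 9.43 in HA and 10.47 and 10.02 in PBAB. Foxp3, the factor of regulatory T cells, and Il4, the Th2 cytokine, stayed below 5.07, the 40th percentile of the table and the threshold of the filter on low signal, on all 4 arrays. Gata3, the Th2 factor, was measured at 8.86 and 9.14 in HA and 7.94 and 7.53 in PBAB, and its difference of -1.26 (SE 0.40, adjusted p = 0.063) did not pass the test. It passed with the replicate number as a block (adjusted p = 0.0185), with the 4 Th1 arrays fitted alone (adjusted p = 0.0203) and with array weights (adjusted p = 0.0389).

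Of 15498 genes tested, 2266 (14.6%) were called, meaning that the limma test gave an adjusted p under 0.05 after correction over all genes tested. Of these, 809 (5.22% of the genes tested) were higher in PBAB and 1457 (9.40%) were lower. The counts of the gene lists below stand against these shares. Differences of more than 4-fold were called for 79 genes in the higher direction and 174 in the lower. In 83 of the genes called higher the HA mean lay below the threshold of 5.07, as did the PBAB mean in 147 of those called lower. For such genes the size is uncertain and no fold is given. The median over all genes tested was 0.03. The deposited columns did not share one distribution, and after a further quantile normalization 1130 genes were called higher and 1281 lower, so that 46.9% of the calls were higher in place of 35.7%. With the replicate number as a block, 4380 genes were called (1679 higher, 2701 lower), among them all 2266. Leaving out HA 2, PBAB 1 or PBAB 2 brought the count to 1078, 1308 or 1124, and leaving out HA 1 to 1602. These are whole cultures, so fewer cells of a type and less RNA per cell cannot be told apart for any gene below.

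**Figure D1:**
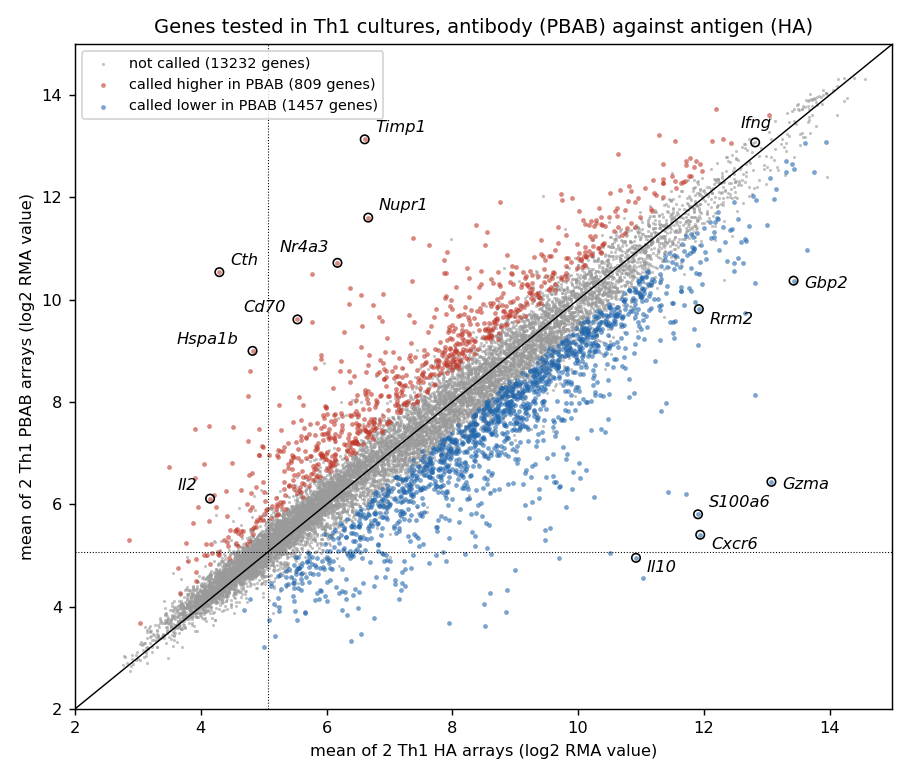
Mean log2 RMA value of each of the 15498 genes tested in the 2 Th1 PBAB arrays (vertical axis) against the 2 Th1 HA arrays (horizontal axis). The diagonal marks equal means and the dotted lines the threshold of 5.07; red points are the 809 genes called higher in PBAB and blue points the 1457 called lower. Ifng lies close to the diagonal at the high end, while Gzma, Cxcr6, S100a6 and Il10 lie far below it and Timp1, Nupr1 and Cth far above.

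The genes that were lower by the widest margins under antibody stimulation encode a granzyme, homing and inflammatory receptors, calcium-binding proteins and the cytokine Il10. Gzma, the serine protease granzyme A of cytotoxic granules, was at 13.13 and 13.02 in HA and 5.37 and 7.51 in PBAB, a difference of -6.64 (SE 0.91, adjusted p = 0.00104), or 99.5-fold. Cxcr6, the receptor for the chemokine Cxcl16 on effector and tissue-homing T cells, was at 11.50 and 12.39 in HA and 5.09 and 5.72 in PBAB, a difference of -6.54 (SE 0.64, adjusted p = 0.000149). The PBAB arrays of Gzma differed from each other more than its HA arrays did. The 15 largest calls in each direction were picked among genes whose groups do not overlap. In these genes, here and below, the lack of overlap was therefore set by the rule. Ffar2, a receptor for short-chain fatty acids, was at 11.42 and 11.45 in HA and 6.14 and 6.35 in PBAB, a difference of -5.19 (SE 0.17, adjusted p = 3.46e-07). P2ry14, a receptor for nucleotide sugars, was at 8.82 and 8.23 in HA and 3.10 and 4.14 in PBAB (-4.90), and Esm1, a secreted proteoglycan known from endothelium, at 9.11 and 8.59 in HA and 3.90 and 3.89 in PBAB (-4.95). The PBAB means of P2ry14 and Esm1 lay below the threshold. Fgl2, a secreted fibrinogen-like protein with immunoregulatory activity, was at 8.43 and 9.30 in HA and 4.55 and 4.10 in PBAB (-4.53), also with a PBAB mean below the threshold. For these genes, too, the rule required that neither PBAB array reach either HA array.

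The largest increases were in an inhibitor of matrix proteases, stress-response genes and genes induced by T cell receptor signals. Timp1, an inhibitor of matrix metalloproteinases, was at 7.61 and 5.60 in HA and 13.47 and 12.80 in PBAB, a difference of 6.53 (SE 0.55, adjusted p = 6.93e-05), or 92.4-fold. The HA arrays differed widely from each other, yet both lay far below the PBAB arrays. Crabp2, which carries retinoic acid to its nuclear receptors, was at 7.73 and 7.01 in HA and 11.03 and 11.39 in PBAB, a difference of 3.85 (SE 0.30, adjusted p = 4.93e-05) or 14.4-fold. Rgs2, a brake on G protein signalling, was at 6.45 and 6.28 in HA and 10.40 and 10.05 in PBAB (3.86), and the zinc finger factor Plagl1 at 6.01 and 5.51 in HA and 9.98 and 9.16 in PBAB (3.81). Rab34, a small GTPase, was at 7.15 and 5.57 in HA and 10.07 and 9.75 in PBAB (3.56), and S1pr3, a sphingosine-1-phosphate receptor, at 5.72 and 3.84 in HA and 8.62 and 8.58 in PBAB (3.82, HA mean below the threshold). By the same rule, none of these genes had a PBAB array at or below an HA array. Of the 30 genes with the largest calls, Cd200 and Gzmd lost theirs when 1 array was left out: Cd200 without HA 2 or PBAB 1 (2.67 to 2.83, adjusted p 0.0694 to 0.0761) and Gzmd without PBAB 1 (-2.90, adjusted p = 0.0571).

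**Figure D2:**
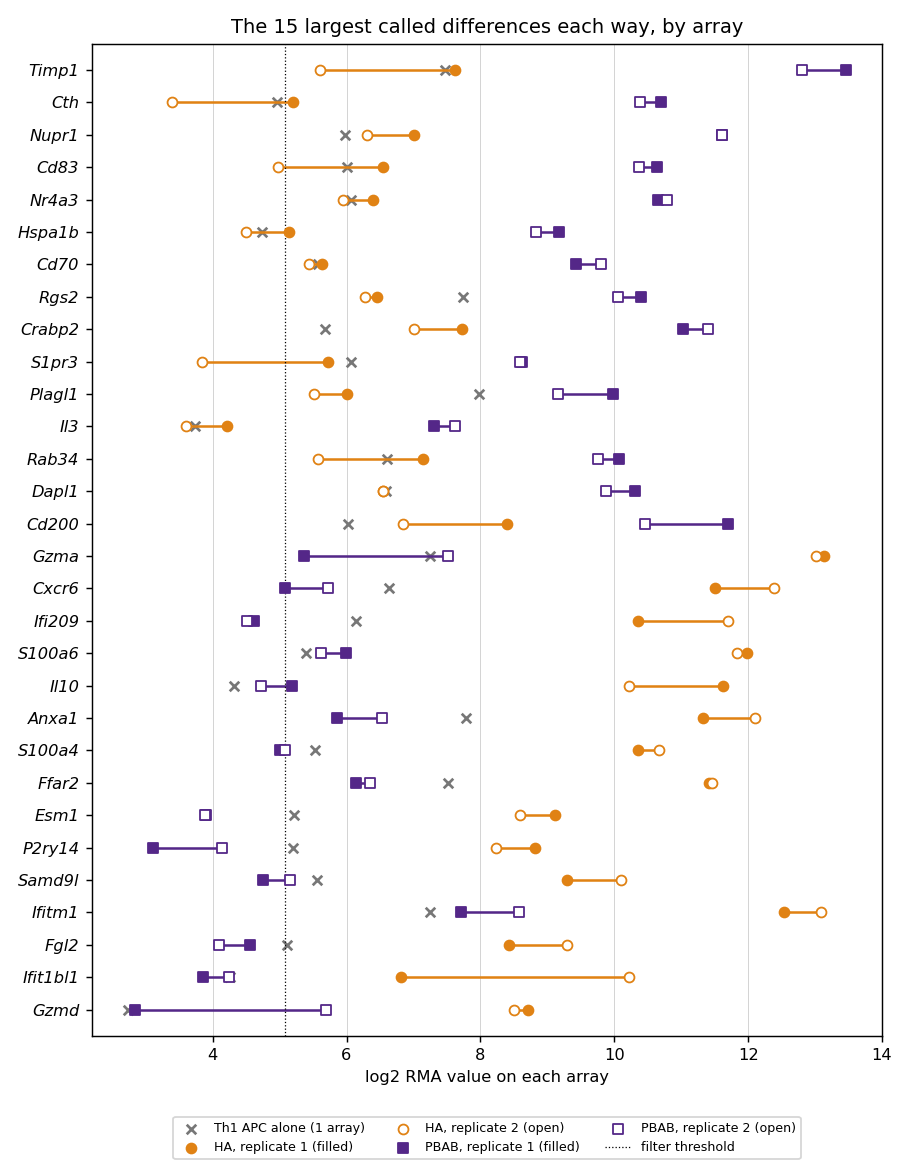
Log2 RMA value on each of the 4 Th1 arrays and on the APC alone array for the 15 largest called increases (Timp1 to Cd200) and the 15 largest decreases (Gzma to Gzmd) among genes whose groups do not overlap. A line joins the 2 replicates of a group, and the dotted line is the threshold of 5.07. The HA pair of Timp1 spans 5.60 to 7.61 and its PBAB pair 12.80 to 13.47, and for most of the decreases the PBAB arrays sit near or below the threshold.

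Among genes of the Th1 lineage, the interferon-gamma receptor chain Ifngr1 and receptors for IL-18 and chemokines were lower in PBAB, the other chain Ifngr2 was higher, and interferon-gamma itself and Stat4 were not called. Of 21 tested members of a Th1 list, 1 was higher, 9 lower and 11 not called (47.6% called), with a median of -0.83 against 0.03 over all genes. Ifng was at 13.20 and 12.44 in HA and 13.21 and 12.94 in PBAB. Its difference of 0.26 did not pass the test (adjusted p = 0.789, SE 0.48), and the 4 arrays overlapped. Stat4, which carries the IL-12 signal, was at 10.31 and 10.92 in HA and 10.54 and 10.47 in PBAB (-0.11, not called). Tbx21 was at 10.66 and 10.36 in HA and 9.87 and 8.52 in PBAB, with a difference of -1.32 (SE 0.43, adjusted p = 0.0656). With the replicate block the gene passed (adjusted p = 0.0288). Without PBAB 1, the higher of the 2 PBAB arrays, its difference was -1.99. The IL-12 receptor chain Il12rb2 was at 8.12 and 7.53 in HA and 7.35 and 6.65 in PBAB (-0.83, SE 0.32, adjusted p = 0.121), with an adjusted p of 0.0377 with the block.

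Where leaving out 1 array or another processing setting moved the count of a list by over 1.5 times, that count stands at the end of the list's account. Among receptors, Ifngr1, the ligand-binding chain of the interferon-gamma receptor, was at 11.75 and 11.93 in HA and 9.41 and 9.46 in PBAB, a difference of -2.41 (SE 0.21, adjusted p = 8.1e-05) or 5.3-fold. Il18r1 and Il18rap, the chains of the IL-18 receptor that drives interferon-gamma together with IL-12, both fell. Il18r1 was at 11.86 and 12.09 in HA and 10.30 and 10.30 in PBAB (-1.68, SE 0.20, adjusted p = 0.000541), and Il18rap at 9.85 and 10.57 in HA and 7.52 and 7.40 in PBAB (-2.75, SE 0.30, adjusted p = 0.000281). In all of them the replicates of a group lay close together and the groups were far apart. Havcr2, the inhibitory receptor Tim-3 of mature Th1 cells, was at 8.49 and 7.91 in HA and 4.88 and 5.19 in PBAB, a difference of -3.16 (SE 0.32, adjusted p = 0.000174), with a PBAB mean below the threshold. Cxcr3, the chemokine receptor that brings Th1 cells to inflamed tissue, was at 9.39 and 10.63 in HA and 6.84 and 6.76 in PBAB (-3.21, SE 0.47, adjusted p = 0.00153). The APC alone array was at 8.40, above both PBAB arrays, and the part of splenocyte RNA in the HA signal of Cxcr3 was not tested. The 1 member called higher was Ifngr2, the signalling chain of the interferon-gamma receptor, at 5.58 and 5.28 in HA and 6.71 and 7.01 in PBAB (1.43, SE 0.23, adjusted p = 0.00243). It was named after its values were seen, as were some of the members given below with only a difference. Fasl, the death ligand, was at 10.23 and 10.31 in HA and 8.95 and 9.41 in PBAB (-1.09, SE 0.32, adjusted p = 0.0477), and this call did not hold when any of the 4 arrays was left out (differences from -1.32 to -0.85, adjusted p 0.0801 to 0.218), after a further quantile normalization (-0.87, adjusted p = 0.11) or with no filter (adjusted p = 0.051). With the replicate block, 3 members of the list were called higher and 11 lower. Th1 genes called higher numbered 2 without HA 1 and 2 after a further quantile normalization, with array weights or with an intensity trend.

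Among 16 tested cytokines of other helper lineages, 3 were higher, 1 lower and 12 not called, with a median of 0.02 that turned sign when each array was centred on its median. Il10, the anti-inflammatory cytokine that Th1 cells can make, was at 11.63 and 10.21 in HA and 5.18 and 4.73 in PBAB, a difference of -5.97 (SE 0.61, adjusted p = 0.000191). Both PBAB arrays lay around the threshold, the PBAB mean below it, while both HA arrays were bright. Maf and Prdm1, transcription factors known to drive Il10 in T cells, were lower as well. Maf was at 9.51 and 9.03 in HA and 6.22 and 5.87 in PBAB, a difference of -3.22 (SE 0.27, adjusted p = 6.39e-05) or 9.33-fold, and Prdm1, which encodes Blimp-1, at 10.27 and 9.26 in HA and 7.03 and 7.22 in PBAB, a difference of -2.64 (SE 0.34, adjusted p = 0.000703) or 6.24-fold. The APC alone array read 7.55 for Maf, between the groups and more than 1 log2 unit above both PBAB arrays, and 4.32 for Il10, below all 4. Neither gene had overlapping groups. Il3, a growth factor for myeloid cells and mast cells, was at 4.22 and 3.59 in HA and 7.30 and 7.63 in PBAB (3.56, SE 0.25, adjusted p = 2.72e-05), and Il2, the T cell growth factor, at 4.02 and 4.28 in HA and 5.90 and 6.31 in PBAB (1.96, SE 0.27, adjusted p = 0.00115). Both cytokines were below the threshold in HA and above it in PBAB. Tnfsf11, the TNF family ligand RANKL, was at 6.42 and 5.85 in HA and 7.69 and 7.59 in PBAB (1.51, SE 0.29, adjusted p = 0.00658), and its call was lost without HA 2 (1.22, adjusted p = 0.0644). Cytokines called lower numbered 2 without HA 2.

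Of 24 tested T cell transcription factors, 5 were higher, 4 lower and 15 not called (37.5% called), and the median of -0.01 turned sign in several settings. Id2, an inhibitor of E proteins that supports effector cells, was at 12.63 and 12.66 in HA and 9.38 and 10.11 in PBAB, a difference of -2.90 (SE 0.30, adjusted p = 0.0002). Nfat5, an NFAT relative that responds to osmotic stress, was at 8.11 and 7.70 in HA and 9.70 and 9.73 in PBAB, a difference of 1.81 (SE 0.17, adjusted p = 0.000112). Id2 was lower and Nfat5 higher in both PBAB arrays than in either HA array. Further transcription factors called were Id3 (1.25), Tox (1.53), Rbpj (1.42) and Ikzf3 (-1.23). Irf4, a factor induced in proportion to receptor signal strength, was at 10.97 and 9.68 in HA and 11.88 and 11.73 in PBAB (1.48, SE 0.36, adjusted p = 0.022). Its call was lost without HA 2, PBAB 1 or PBAB 2 (0.83 to 1.55, adjusted p 0.0827 to 0.14) and with the 4 Th1 arrays fitted alone (1.48, adjusted p = 0.0715). Transcription factors called higher numbered 2 to 3 without HA 2, PBAB 1 or PBAB 2.

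Granzymes and perforin led the cytotoxic granule genes that were lower under antibody stimulation. Of 18 tested members, 0 were higher, 8 lower and 10 not called (44.4% called, 9.40% of all genes being lower), with a median of -1.28 and differences from -6.64 to 0.06. Gzmk, granzyme K, was at 8.40 and 8.84 in HA and 5.10 and 4.95 in PBAB, a difference of -3.59 (SE 0.26, adjusted p = 3.29e-05), with a PBAB mean below the threshold. Prf1, perforin, which forms the pores through which granzymes act, was at 8.84 and 8.31 in HA and 6.45 and 6.83 in PBAB, a difference of -1.93 (SE 0.29, adjusted p = 0.00188) or 3.81-fold. For both genes all PBAB arrays lay below all HA arrays, although the mean of all Prf1 probe sets gave -0.66 and no call (adjusted p = 0.203). Gzmd, Gzme and Gzmg belong to a family of closely related granzyme genes, so their probe sets may share signal. Gzme was at 6.60 and 6.48 in HA and 3.25 and 3.66 in PBAB (-3.09), Gzmg at 8.02 and 7.87 in HA and 3.02 and 4.34 in PBAB (-4.27) and Gzmd at 8.70 and 8.50 in HA and 2.84 and 5.70 in PBAB (-4.34). Their PBAB means were below the threshold. Gzmb, granzyme B, which starts apoptosis in target cells, was at 14.19 and 13.72 in HA and 12.28 and 12.52 in PBAB, a difference of -1.55 (SE 0.81, adjusted p = 0.257). It was called with the 4 Th1 arrays fitted alone (adjusted p = 0.0119) or with a block within each lineage (adjusted p = 0.003). With the plain block it was not called (adjusted p = 0.112). The call of Gzmd was lost without PBAB 1 (-2.90, adjusted p = 0.0571).

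Genes that mark other cytotoxic lymphocytes were measured beside the granule list. Of 8 tested NK cell markers, none was called higher and 2 lower, Gzma and Klrd1, and the mean log2 value of the list was 6.64 and 6.73 in HA, 5.17 and 5.62 in PBAB and 5.51 on the APC alone array. Klrd1, the CD94 receptor chain that activated T cells can also carry, was at 9.81 and 10.44 in HA and 6.37 and 6.98 in PBAB (-3.45, SE 0.61, adjusted p = 0.00402). The defining NK receptor gene Ncr1 read 4.32 and 4.44 in HA and 4.30 and 4.70 in PBAB, with no call. Of 5 tested markers of gamma-delta and CD8 T cells, 2 were lower, Cd8b1 at 8.13 and 9.09 in HA and 6.40 and 6.76 in PBAB (-2.03, SE 0.48, adjusted p = 0.0178) and the gamma chain segment Trgv4 at 6.49 and 6.54 in HA and 4.01 and 4.56 in PBAB (-2.23, SE 0.57, adjusted p = 0.0257, PBAB mean below the threshold). Cd8a, the other chain of CD8, was at 6.79 and 8.11 in HA and 5.20 and 6.45 in PBAB (-1.62, not called). With the replicate block 3 of the 5 markers were called lower. CD8 chain signal was higher in HA within each replicate number, and the part of other lymphocytes in the granule result was not tested. By array, the calls lost were those of Cd8b1 without HA 2, PBAB 1 or PBAB 2 (-2.21 to -1.56, adjusted p 0.0608 to 0.138) and Trgv4 without HA 1, HA 2, PBAB 1 or PBAB 2 (-2.50 to -1.95, adjusted p 0.0697 to 0.131). CD8 and gamma-delta markers called lower numbered 0 to 1 without HA 1, HA 2, PBAB 1 or PBAB 2.

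**Figure D3:**
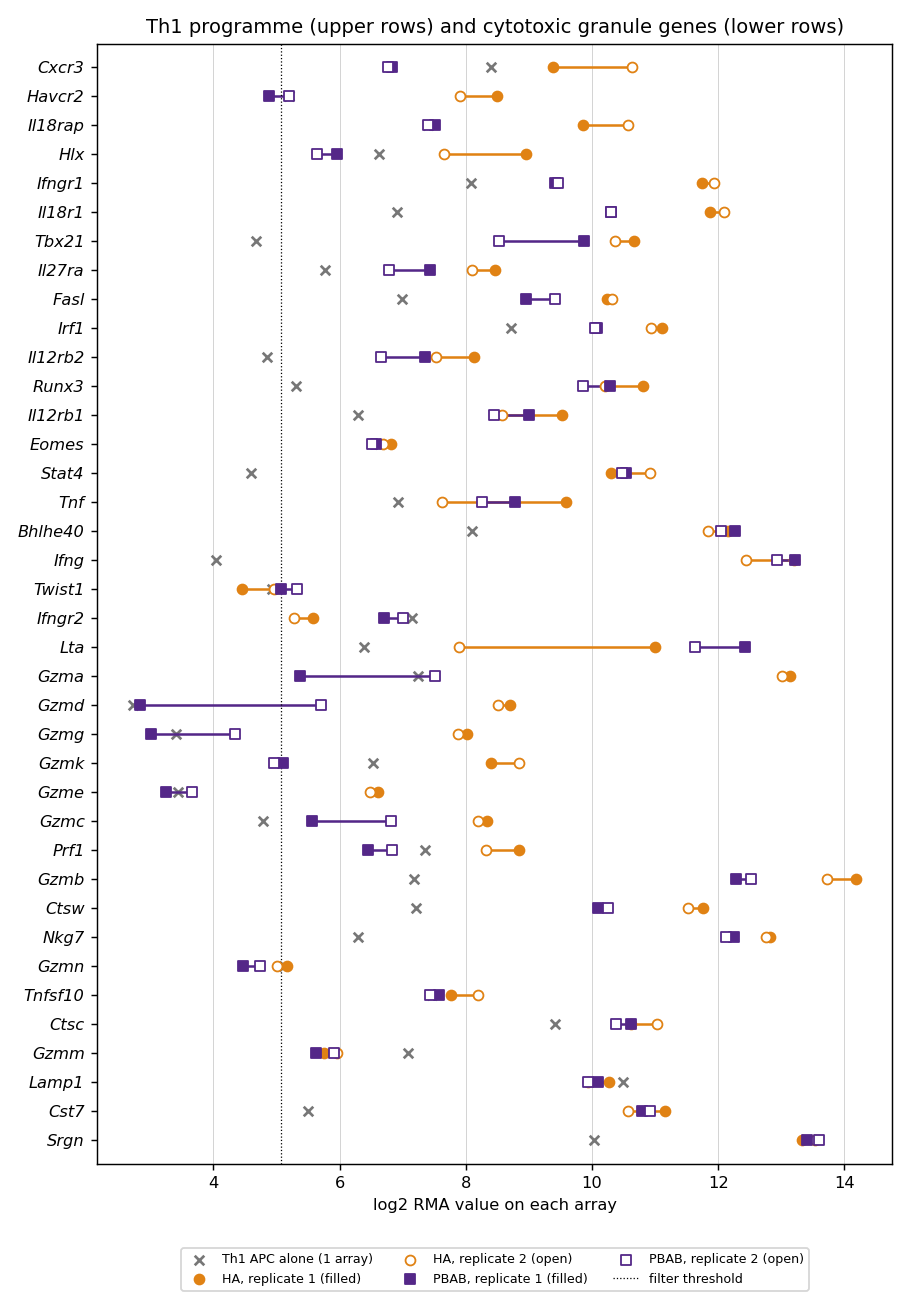
Log2 RMA value on each Th1 array and on the APC alone array for members of the Th1 list (Cxcr3 to Lta) and of the cytotoxic granule list (Gzma to Srgn), ordered by difference within each list. A line joins the 2 replicates, and the dotted line is the threshold of 5.07. The HA and PBAB pairs of Ifng interleave near 13, whereas those of Ifngr1, Il18r1, Gzma, Gzmk and Prf1 are apart.

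Protease inhibitors moved both ways. Of 9 tested serpins and Timps, 2 were higher, 1 lower and 6 not called (33.3% called), and the median of 0.14 became -0.13 without PBAB 1. Serpinb1a, an inhibitor of neutrophil-type serine proteases, was at 9.22 and 9.53 in HA and 5.82 and 6.43 in PBAB (-3.25, SE 0.44, adjusted p = 0.000901), and Serpinb6b, which can inhibit granzyme A, at 9.69 and 9.76 in HA and 11.74 and 12.40 in PBAB (2.34, SE 0.36, adjusted p = 0.00201). Serpinb1a was thus lower and Serpinb6b higher in PBAB, each without overlap. Serpins and Timps called lower numbered 2 without HA 1 and 2 with the block, with arrays centred on their medians, with a filter at the 60th percentile, with means of all probe sets, with the probe sets of largest variance or with array weights.

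Most of the receptors for tissue homing that passed the test were lower in PBAB. Of 24 tested homing genes, 2 were higher, 8 lower and 14 not called (41.7% called), with a median of -0.50. Beside Cxcr6 and Cxcr3, Ccr1, a receptor for inflammatory chemokines, was at 7.53 and 7.11 in HA and 5.11 and 5.43 in PBAB (-2.05, SE 0.20, adjusted p = 0.000164). Itgb7, an integrin chain of gut homing, was at 10.62 and 10.53 in HA and 8.73 and 8.94 in PBAB, a difference of -1.74 (SE 0.21, adjusted p = 0.000497) or 3.34-fold. Both genes were lower in both PBAB arrays. S1pr1, the receptor that lets T cells leave lymph nodes, was at 8.64 and 8.58 in HA and 7.63 and 7.14 in PBAB (-1.23, SE 0.30, adjusted p = 0.0202), while Ccr7, which holds them there, was at 10.37 and 9.86 in HA and 11.59 and 11.36 in PBAB (1.36, SE 0.30, adjusted p = 0.012). S1pr1 was lower and Ccr7 higher in PBAB, without overlap. Another of the homing genes called was Ccr8 (1.35). The activation marker Cd44 was at 10.49 and 10.46 in HA and 10.88 and 10.56 in PBAB and was not called. The test no longer passed for S1pr1 without HA 1, HA 2 or PBAB 2 (-1.26 to -0.99, adjusted p 0.0811 to 0.149), Ccr7 without HA 2 or PBAB 1 (1.10 to 1.25, adjusted p 0.0761 to 0.0998) and Ccr2 without HA 2 or PBAB 1 (-0.91 to -0.84, adjusted p 0.138 to 0.158) and with the 4 Th1 arrays fitted alone (-1.26, adjusted p = 0.0739). Homing genes called higher numbered 0 without HA 2 or PBAB 1, and those called lower 5 without HA 2 or PBAB 1.

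Of 17 tested chemokine ligands, 2 were higher, 3 lower and 12 not called (29.4% called). Ccl3, an inflammatory chemokine, was at 7.79 and 7.94 in HA and 10.33 and 10.70 in PBAB (2.65, SE 0.40, adjusted p = 0.00182), and Ccl4, a related chemokine, at 9.55 and 8.48 in HA and 10.70 and 10.58 in PBAB (1.63, SE 0.33, adjusted p = 0.00814). The interferon-induced ligands of Cxcr3 were lower: Cxcl11 was at 7.03 and 7.82 in HA and 5.25 and 5.50 in PBAB (-2.05, SE 0.24, adjusted p = 0.000463) and Cxcl10 at 5.76 and 7.04 in HA and 5.00 and 5.04 in PBAB (-1.38, SE 0.37, adjusted p = 0.0302, PBAB mean below the threshold). In Ccl3 and Cxcl11 the 2 groups stood well apart. Another of the chemokines called was Ccl6 (-1.75). Without some arrays or settings, calls failed for Ccl4 without HA 2 or PBAB 1 (1.09 to 1.57, adjusted p 0.0505 to 0.0591) and Cxcl10 without HA 2, PBAB 1 or PBAB 2 (-1.40 to -0.73, adjusted p 0.115 to 0.199) and with the 4 Th1 arrays fitted alone (-1.38, adjusted p = 0.0845). Chemokines called higher numbered 1 without HA 2, and those called lower 1 without HA 2, PBAB 1 or PBAB 2.

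Calcium-binding and membrane-scaffold genes known to be high in effector and memory T cells held some of the largest decreases. Of 23 tested S100, annexin, galectin and related genes, 1 was higher, 9 lower and 13 not called (43.5% called), with a median of -0.59. S100a6 was at 11.98 and 11.83 in HA and 5.99 and 5.62 in PBAB, a difference of -6.10 (SE 0.32, adjusted p = 5.24e-06) or 68.8-fold. S100a4, which binds myosin and marks effector memory cells, was at 10.36 and 10.67 in HA and 5.01 and 5.07 in PBAB, a difference of -5.47 (SE 0.46, adjusted p = 6.93e-05), with a PBAB mean below the threshold. Anxa1, a phospholipid-binding mediator of glucocorticoid action, was at 11.32 and 12.11 in HA and 5.86 and 6.53 in PBAB, a difference of -5.52 (SE 0.31, adjusted p = 7.31e-06) or 45.9-fold. In all of them both PBAB arrays lay far below both HA arrays. Another of the genes of the S100 list called was Anxa3 (2.04). Lgals3, galectin-3, was at 12.98 and 12.27 in HA and 10.89 and 10.56 in PBAB (-1.90, SE 0.28, adjusted p = 0.00165). It is also a macrophage product, and the APC alone array was at 13.21, above all 4 Th1 arrays. The APC alone array read 5.40 for S100a6, 5.53 for S100a4 and 7.78 for Anxa1, below both HA arrays in each case. Genes of the S100 list called higher numbered 2 with means of all probe sets, and those called lower 5 without PBAB 2.

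Many genes induced by interferons were lower under antibody stimulation, in cultures where Ifng was not called. All 10 tested interferon-inducible GTPases, large enzymes that attack the vacuoles of intracellular microbes, were called lower, with differences from -3.51 to -1.07 and a median of -2.40, while 9.40% of all genes were lower. The share stands for the members with a probe set of their own, and 8 further entries of the list were not on the array under 1 symbol. Gbp8, a guanylate-binding protein, was at 10.35 and 10.49 in HA and 7.36 and 7.45 in PBAB, a difference of -3.02 (SE 0.36, adjusted p = 0.000466) or 8.1-fold. Gbp7 was at 11.05 and 11.59 in HA and 7.71 and 7.92 in PBAB, a difference of -3.51 (SE 0.46, adjusted p = 0.000809) or 11.4-fold. Of the immunity-related GTPases, Irgm1 was at 9.36 and 9.54 in HA and 7.70 and 7.58 in PBAB (-1.81, SE 0.22, adjusted p = 0.000541), and Ifi47 at 11.01 and 11.60 in HA and 9.08 and 9.34 in PBAB (-2.10, SE 0.27, adjusted p = 0.000791). Every PBAB array lay below every HA array in each of these genes. Guanylate-binding proteins are close paralogues, so their probe sets may share signal. The number called was 7 to 9 when any 1 array was left out, 7 without HA 2 or PBAB 2.

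The upstream sequence of these GTPase genes is shown because they moved together and because an element through which interferons act, the interferon-stimulated response element, is known. RefSeq promoter windows (build GRCm38.p6, 250 bases before to 50 after the start) were found for 7 of the 10 genes. Its core was searched as GAAANNGAA on both strands, and matches that overlap each other were kept. It occurred in 6 of 8 windows (75%), against 8.56% of all 32851 windows. The stretches below are read in the direction of the gene, with each match to the core or its reverse complement in capitals. They lie at chr3:142620575-142620643 on the plus strand (Gbp2), chr3:142559970-142560038 on the plus strand (Gbp3), chr3:142530254-142530322 on the plus strand (Gbp7), chr11:58199492-58199555 on the plus strand (Igtp), chr11:48871421-48871480 on the minus strand (Irgm1) and chr11:58214883-58214951 on the plus strand (Irgm2).
Gbp2: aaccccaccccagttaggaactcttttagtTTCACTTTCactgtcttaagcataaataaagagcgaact
Gbp3: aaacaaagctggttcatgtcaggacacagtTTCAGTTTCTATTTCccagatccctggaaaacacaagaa
Gbp7: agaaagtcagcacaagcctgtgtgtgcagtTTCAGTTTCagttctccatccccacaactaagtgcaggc
Igtp: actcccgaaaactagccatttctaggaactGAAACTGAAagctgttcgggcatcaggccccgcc
Irgm1: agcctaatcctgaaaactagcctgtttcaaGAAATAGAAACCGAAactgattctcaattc
Irgm2: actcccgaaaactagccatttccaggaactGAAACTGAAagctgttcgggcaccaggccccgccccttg

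The match lay 58 bases before the start in Gbp2, 52 in Gbp7, 34 in Igtp and 64 in Irgm2, and Gbp3 and Irgm1 held 2 overlapping matches each. The 6 genes printed differed by -3.51 (Gbp7) to -1.07 (Irgm2). A match describes these letters only and shows no binding.

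Of 26 tested genes of the wider interferon response, 1 was higher, 16 lower and 9 not called (65.4% called), with a median of -1.26. Isg20, an exonuclease that degrades viral RNA, was at 9.43 and 9.66 in HA and 5.27 and 5.79 in PBAB, a difference of -4.02 (SE 0.34, adjusted p = 6.93e-05) or 16.2-fold, with the APC alone array at 7.08. Usp18, which removes ISG15 from proteins and damps interferon signalling, was at 9.66 and 9.72 in HA and 6.53 and 6.16 in PBAB (-3.35, SE 0.28, adjusted p = 6.93e-05). Xaf1, an interferon-induced partner of apoptosis inhibitors, was at 8.84 and 10.10 in HA and 5.15 and 5.83 in PBAB (-3.98, SE 0.45, adjusted p = 0.000347), and Oas3, an oligoadenylate synthetase that senses double-stranded RNA, at 8.24 and 8.06 in HA and 6.26 and 6.38 in PBAB (-1.83, SE 0.17, adjusted p = 9.18e-05). These genes were lower in both PBAB arrays than in either HA array. Ifitm1, a membrane protein that blocks viral entry, was at 12.53 and 13.09 in HA and 7.71 and 8.58 in PBAB (-4.66, SE 0.57, adjusted p = 0.000555), Samd9l, an antiviral factor, at 9.29 and 10.10 in HA and 4.76 and 5.15 in PBAB (-4.74, SE 0.28, adjusted p = 1.03e-05), and Ifit1bl1 at 6.81 and 10.21 in HA and 3.85 and 4.24 in PBAB (-4.46, SE 0.82, adjusted p = 0.00507). The 2 HA arrays of Ifit1bl1 differed by more than the PBAB arrays did, and the PBAB means of Samd9l and Ifit1bl1 lay below the threshold. The 9 members not called ran from -0.80 (Ifi27l2a) to 0.35 (Mx2), and the 1 called higher was Oasl1 (0.71), whose HA mean lay below the threshold. The core occurred in 6 of 16 windows of the called members (37.5%) and 5 of 6 of those not called (83.3%), a larger share among those not called. Interferon-stimulated genes called higher numbered 0 without HA 1, HA 2, PBAB 1 or PBAB 2 and 0 with the 4 Th1 arrays fitted alone or with a filter at the 60th percentile.

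The Schlafen family, known from T cell quiescence, and the p200 family of interferon-inducible DNA sensors gave 1 higher, 7 lower and 1 not called of 9 tested members, with a median of -2.04. Ifi209 was at 10.36 and 11.70 in HA and 4.61 and 4.52 in PBAB (-6.47, SE 0.46, adjusted p = 2.93e-05), and Ifi202b at 8.70 and 9.30 in HA and 4.72 and 4.71 in PBAB (-4.29, SE 0.20, adjusted p = 3.11e-06). Both PBAB means were below the threshold. The 2 genes belong to 1 family, so their probe sets may share signal. Their differences parted in Th9 cultures (-4.21 for Ifi209 and -0.11 for Ifi202b) and in Th17 cultures (-4.16 and -0.57). Slfn1 was at 10.06 and 10.44 in HA and 6.20 and 6.09 in PBAB, a difference of -4.10 (SE 0.28, adjusted p = 2.2e-05) or 17.2-fold, and Slfn8 at 6.56 and 7.35 in HA and 4.74 and 5.08 in PBAB (-2.04, SE 0.25, adjusted p = 0.00057). In all of them the HA arrays were higher than the PBAB arrays without overlap. The member called higher was Slfn5 (0.70), with the APC alone array at 7.35. The PBAB mean of Slfn8 lay below the threshold. The core occurred in 6 of 10 promoter windows of called members (60%) and 1 of 2 of the member not called (50%), against 8.56% of all windows. The 6 windows belonged to Slfn5, Slfn8, Slfn9 and Mndal, of 8 called members with a window. The same site of Slfn8 was counted in more than 1 window. Schlafen and p200 genes called higher numbered 0 without HA 1, HA 2, PBAB 1 or PBAB 2 and 0 with the 4 Th1 arrays fitted alone, with arrays centred on their medians or with means of all probe sets.

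Genes switched on within hours of T cell receptor signalling were split: Nr4a2, Nr4a3 and a few others were several-fold higher in PBAB at day 4, and the remaining ones were not called. Of 25 tested members, 5 were higher, 0 lower and 20 not called (20% called), with a median of 0.31 that became -0.04 without HA 2. Nr4a3, an orphan nuclear receptor induced by receptor signals, was at 6.40 and 5.94 in HA and 10.66 and 10.78 in PBAB, a difference of 4.55 (SE 0.19, adjusted p = 1.6e-06) or 23.4-fold. Nr4a2, a close relative, was at 6.33 and 6.23 in HA and 9.13 and 9.61 in PBAB, a difference of 3.09 (SE 0.36, adjusted p = 0.000395) or 8.53-fold. Replicates of a group lay close together in both genes, far from the other group. Cd83, an activation-induced surface protein, was at 6.55 and 4.97 in HA and 10.63 and 10.37 in PBAB (4.74, SE 0.48, adjusted p = 0.000186), and Rgs16, a brake on chemokine receptor signalling, at 7.01 and 6.10 in HA and 9.79 and 9.16 in PBAB (2.92, SE 0.29, adjusted p = 0.000174). Other classical members were not called: Myc was at 11.70 and 10.60 in HA and 11.05 and 10.35 in PBAB (-0.45), and the early activation antigen Cd69 at 10.04 and 9.27 in HA and 9.72 and 10.27 in PBAB (0.34). The groups of Myc and Cd69 overlapped. Another of the early genes called was Nr4a1 (3.02). With the replicate block 9 members were called higher and 3 lower. The promoter windows of the called members held neither the NGFI-B response element (AAAGGTCA) nor the cyclic AMP response element (TGACGTCA), in 0 of 4 windows each, and those of the members not called held them in 0 and 1 of 19, against 1.51% and 1.79% of all windows. Early genes called lower numbered 1 without HA 2 and 1 with means of all probe sets.

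Of 15 tested NF-kB genes, 3 were higher, 0 lower and 12 not called, with a median of 0.35, and with the block 7 were called higher and 1 lower. Nfkbib, an inhibitor of NF-kB, was at 9.17 and 8.68 in HA and 10.55 and 10.14 in PBAB (1.43, SE 0.24, adjusted p = 0.00334), and the subunit Rel at 6.83 and 6.36 in HA and 7.43 and 7.91 in PBAB (1.07, SE 0.23, adjusted p = 0.0113). The inhibitor Nfkbia, itself an NF-kB target, was at 12.28 and 12.58 in HA and 12.89 and 13.22 in PBAB (0.63, SE 0.17, adjusted p = 0.0363). Both PBAB arrays lay above both HA arrays in these genes. Calls were lost for Rel without HA 2 or PBAB 2 (0.83 to 0.84, adjusted p 0.1 to 0.101) and Nfkbia without HA 1, HA 2 or PBAB 2 (0.47 to 0.78, adjusted p 0.058 to 0.252), with the 4 Th1 arrays fitted alone (0.63, adjusted p = 0.125) and in its probe set with the largest variance (0.97, adjusted p = 0.111). NF-kB genes called higher numbered 1 without HA 2 or PBAB 2, 6 after a further quantile normalization and 5 with means of all probe sets.

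Proximal signalling genes were shifted in opposite directions. Of 18 tested components of the receptor complex and its signalling, 2 were higher, 6 lower and 10 not called, with a median of -0.38. Txk, a Tec family kinase of Th1 cells, was at 9.44 and 10.21 in HA and 6.65 and 7.33 in PBAB, a difference of -2.84 (SE 0.31, adjusted p = 0.000289) or 7.15-fold. Themis, an adaptor that tunes receptor signals, was at 11.93 and 11.65 in HA and 10.18 and 10.16 in PBAB (-1.62, SE 0.25, adjusted p = 0.00185), and Skap1, an adaptor of integrin activation, at 10.69 and 10.70 in HA and 9.71 and 9.62 in PBAB (-1.02, SE 0.16, adjusted p = 0.002). All were lower in PBAB without overlap. Another of the signalling genes called was Cd6 (1.11). Cd5, a receptor that dampens T cell receptor signals and whose level follows their strength, was at 9.08 and 8.67 in HA and 11.28 and 10.48 in PBAB, a difference of 2.00 (SE 0.34, adjusted p = 0.00343) or 4.01-fold. Cd5 was thus higher in both PBAB arrays, while Cd3e (-0.54, SE 0.36, adjusted p = 0.381) and Cd4 (0.43, SE 0.30, adjusted p = 0.417) were not called. Cd3e passed with the block (adjusted p = 0.0489). Signalling genes called higher numbered 1 without HA 2 or PBAB 1, and those called lower 3 without HA 1, HA 2, PBAB 1 or PBAB 2 and 3 with the 4 Th1 arrays fitted alone.

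Surface receptors of the checkpoint kind also went both ways. Of 15 tested inhibitory receptors and ligands, 3 were higher, 3 lower and 9 not called, with a median of 0.05 whose sign turned in 4 settings. With the block, 6 were called higher and 4 lower. Cd200, an inhibitory ligand, was at 8.40 and 6.85 in HA and 11.70 and 10.46 in PBAB (3.45, SE 0.70, adjusted p = 0.00858), and its receptor Cd200r1 at 6.09 and 6.67 in HA and 4.81 and 5.11 in PBAB (-1.42, SE 0.27, adjusted p = 0.00582, PBAB mean below the threshold, APC alone 6.84). The ligand was higher and the receptor lower in PBAB. Another of the inhibitory genes called was Btla (0.98). Entpd1, the ecto-enzyme CD39 that degrades ATP, was at 10.26 and 9.28 in HA and 8.07 and 7.24 in PBAB, a difference of -2.11 (SE 0.35, adjusted p = 0.00282) or 4.32-fold. Ctla4, the inhibitory counterpart of CD28, was at 11.59 and 11.94 in HA and 12.42 and 12.40 in PBAB (0.64, SE 0.18, adjusted p = 0.036). Pdcd1, the receptor PD-1, was at 7.80 and 7.56 in HA and 8.71 and 8.24 in PBAB (0.79, SE 0.24, adjusted p = 0.0518), and Lag3, an inhibitory receptor for MHC class II, at 9.72 and 7.92 in HA and 11.10 and 10.14 in PBAB (1.80, SE 0.66, adjusted p = 0.103). Neither was called, and both passed with the block (adjusted p = 0.0105 and 0.00192). Lag3 was also called without HA 1 (2.70, adjusted p = 0.0327), the higher HA array, and Pdcd1 after a further quantile normalization (0.85, adjusted p = 0.0137). By array, the calls lost were those of Cd200 without HA 2 or PBAB 1 (2.67 to 2.83, adjusted p 0.0694 to 0.0761), Cd200r1 without HA 2 (-1.13, adjusted p = 0.0578) and Ctla4 without HA 1, PBAB 1 or PBAB 2 (0.47 to 0.65, adjusted p 0.131 to 0.225), with the 4 Th1 arrays fitted alone (0.64, adjusted p = 0.0978) and with arrays centred on their medians (0.59, adjusted p = 0.0621). Inhibitory genes called higher numbered 0 to 1 without PBAB 1 or PBAB 2, 1 with the 4 Th1 arrays fitted alone and 5 after a further quantile normalization.

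Of 18 tested costimulatory receptors and ligands, 3 were higher, 4 lower and 11 not called, with a median of 0.13 that turned sign without HA 2 or PBAB 1. Cd70, the ligand of Cd27, was at 5.63 and 5.44 in HA and 9.42 and 9.81 in PBAB, a difference of 4.08 (SE 0.23, adjusted p = 8.29e-06) or 16.9-fold. Tnfsf8, the CD30 ligand, was at 6.95 and 7.44 in HA and 8.62 and 8.36 in PBAB (1.29, SE 0.21, adjusted p = 0.00254). Both TNF family ligands were higher in both PBAB arrays. Further costimulatory genes called were Tnfsf14 (1.76), Icos (-1.24) and Cd86 (-1.38). Slamf6 and Slamf7, receptors of the SLAM family that bind their like on neighbouring cells, were lower. Slamf6 was at 8.66 and 9.79 in HA and 5.75 and 5.71 in PBAB (-3.49, SE 0.30, adjusted p = 7.02e-05), and Slamf7 at 9.62 and 9.57 in HA and 7.28 and 7.73 in PBAB (-2.09, SE 0.34, adjusted p = 0.00268). No PBAB array of the SLAM genes reached an HA array.

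Among 18 tested cytokine receptors of the IL-2 family and their feedback regulators, the counts were 2 higher, 2 lower and 14 not called, and with the block 3 higher and 8 lower. Il2 (1.96) is given above, and its high-affinity receptor chain Il2ra was at 11.66 and 11.28 in HA and 11.27 and 11.49 in PBAB, not called (-0.09, SE 0.25, adjusted p = 0.864). The 4 arrays overlapped for this probe set of Il2ra, but another probe set of the gene gave -2.09 (adjusted p = 0.0256), and the mean of its probe sets -1.09 (adjusted p = 0.0229), so its size and its call depend on the probe set. Il7r, the receptor for the survival cytokine IL-7, was at 11.88 and 11.70 in HA and 10.51 and 10.72 in PBAB (-1.18, SE 0.29, adjusted p = 0.0227), Jak1, a kinase of these receptors, at 10.69 and 11.20 in HA and 9.84 and 9.81 in PBAB (-1.12, SE 0.20, adjusted p = 0.00446), and Il15ra, which presents IL-15, at 7.52 and 7.46 in HA and 8.35 and 8.50 in PBAB (0.94, SE 0.19, adjusted p = 0.00766). Il7r and Jak1 were lower and Il15ra higher in PBAB. The test no longer passed for Il7r without HA 1, HA 2, PBAB 1 or PBAB 2 (-1.28 to -1.07, adjusted p 0.0751 to 0.115) and Il15ra without HA 2 or PBAB 2 (0.86 to 0.91, adjusted p 0.056 to 0.0622). Genes of the IL-2 receptor list called higher numbered 1 without HA 2 or PBAB 2, and those called lower 1 without HA 1 or PBAB 2.

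Of 17 tested genes of naive and memory T cell quiescence, 3 were higher, 5 lower and 9 not called. Klf2, which keeps T cells quiescent and drives S1pr1, was at 9.59 and 10.23 in HA and 6.15 and 6.43 in PBAB, a difference of -3.62 (SE 0.29, adjusted p = 5e-05) or 12.3-fold, with the APC alone array at 7.49. Dapl1, a gene known from naive T cells, was at 6.55 and 6.55 in HA and 10.31 and 9.88 in PBAB, a difference of 3.55 (SE 0.21, adjusted p = 1.03e-05) or 11.7-fold. Klf2 was much lower and Dapl1 much higher in both PBAB arrays. Further quiescence genes called were Klf3 (0.61), Lef1 (-0.94) and Foxo1 (-0.64). Quiescence genes called higher numbered 1 without HA 2 or PBAB 1, and those called lower 1 to 2 without HA 1, HA 2, PBAB 1 or PBAB 2 and 3 after a further quantile normalization.

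The amino acid response, in which the factor ATF4 raises the synthesis and uptake of amino acids, held many genes that were higher under antibody stimulation. Of 20 tested members of an ATF4 list, 10 were higher, 0 lower and 10 not called (50% called, 5.22% of all genes being higher), with a median of 0.86. Cth, cystathionine gamma-lyase, which makes cysteine, was at 5.20 and 3.39 in HA and 10.69 and 10.38 in PBAB (6.24, SE 0.53, adjusted p = 7.02e-05, HA mean below the threshold). Nupr1, a small stress-induced chromatin protein, was at 7.01 and 6.31 in HA and 11.61 and 11.60 in PBAB, a difference of 4.94 (SE 0.38, adjusted p = 4.54e-05) or 30.8-fold. Asns, asparagine synthetase, was at 8.96 and 8.07 in HA and 11.20 and 10.92 in PBAB, a difference of 2.54 (SE 0.35, adjusted p = 0.00114) or 5.83-fold, and the stress factor Atf5 at 7.09 and 6.73 in HA and 8.74 and 8.16 in PBAB, a difference of 1.54 (SE 0.22, adjusted p = 0.00147) or 2.91-fold. Every PBAB array exceeded every HA array in all of these genes. The 10 members not called ran from -0.61 (Cebpb) to 1.78 (Chac1). With the block 13 members were called higher. ATF4 genes called higher numbered 6 without HA 2, and those called lower 1 with the block.

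Of 26 tested genes of serine and one-carbon synthesis, amino acid transport and tRNA charging, 11 were higher, 0 lower and 15 not called (42.3% called), with a median of 0.91, and 19 were higher with the block. Aldh1l2, a mitochondrial folate enzyme, was at 5.00 and 4.49 in HA and 8.71 and 7.53 in PBAB (3.37, SE 0.33, adjusted p = 0.000162, HA mean below the threshold). Slc7a3 and Slc7a1, transporters of cationic amino acids, were at 6.26 and 5.37 in HA and 8.92 and 8.42 in PBAB (2.85, SE 0.27, adjusted p = 0.00012) and at 9.16 and 9.21 in HA and 10.27 and 10.34 in PBAB (1.12, SE 0.17, adjusted p = 0.002). Slc6a9, a glycine transporter, was at 6.90 and 6.34 in HA and 8.40 and 7.94 in PBAB (1.55, SE 0.23, adjusted p = 0.00166). The PBAB arrays lay above the HA arrays without overlap in each case. Amino acid genes called higher numbered 5 without HA 2 or PBAB 1, and those called lower 1 with the probe sets of largest variance.

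The promoters of 3 members of the ATF4 list are shown because ATF4 is known to act through C/EBP-ATF response elements. The element was searched as TGATGNAA on both strands, and no 2 matches overlapped in the stretches printed. It occurred in 4 of 10 windows of the called members (40%) and 4 of 10 windows of those not called (40%), against 3.97% of all windows. Members of that list with and without a call thus held it equally often. In the list of serine, one-carbon and amino acid transport genes, it occurred in 1 of 12 windows of called members (8.33%) and 3 of 11 of those not called (27.3%). Capitals mark the match or its reverse complement in the stretches at chr6:7693210-7693262 on the minus strand (Asns), chr7:126625543-126625610 on the minus strand (Nupr1) and chr1:191183406-191183473 on the minus strand (Atf3), from RefSeq, GRCm38.p6.
Asns: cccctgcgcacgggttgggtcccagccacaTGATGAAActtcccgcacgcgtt
Nupr1: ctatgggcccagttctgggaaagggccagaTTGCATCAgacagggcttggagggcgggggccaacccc
Atf3: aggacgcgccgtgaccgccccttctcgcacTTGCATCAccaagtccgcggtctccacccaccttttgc

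Of 19 tested heat shock and chaperone genes, 5 were higher, 2 lower and 12 not called. Hspa1b, the inducible chaperone Hsp70, was at 5.14 and 4.50 in HA and 9.17 and 8.83 in PBAB (4.18, SE 0.27, adjusted p = 1.61e-05), and Hspa1a at 3.50 and 3.49 in HA and 6.84 and 6.62 in PBAB (3.24, SE 0.35, adjusted p = 0.000274). These 2 genes are near-identical neighbours whose probe sets may share signal, and their HA means were below the threshold. Hspe1, a mitochondrial chaperone, was at 11.77 and 11.79 in HA and 12.70 and 12.84 in PBAB (0.99, SE 0.16, adjusted p = 0.00282), while Hsp90aa1, the inducible Hsp90, was at 12.82 and 12.75 in HA and 12.03 and 12.01 in PBAB (-0.76, SE 0.14, adjusted p = 0.00544). Hspe1 was higher and Hsp90aa1 lower in PBAB, although the mean of all Hsp90aa1 probe sets gave -0.29 and no call (adjusted p = 0.147). A pair of heat shock units, searched as GAANNTTC, which reads the same on both strands, occurred in 3 of 6 windows of called members (50%), in 41.2% of 17 windows of those not called and in 7.86% of all windows. Further chaperone genes called were Hspa2 (1.01), Hspa4l (1.01) and Ahsa1 (-0.66). The stretch of Hspa1a at chr17:34972223-34972290 on the minus strand shows it in capitals (RefSeq, GRCm38.p6), and Hspa1b carries the same letters at chr17:34959305-34959372 on the minus strand. Chaperone genes called higher numbered 3 without HA 2 or PBAB 2, and those called lower 1 without HA 1, HA 2, PBAB 1 or PBAB 2 and 1 with the 4 Th1 arrays fitted alone, after a further quantile normalization or with means of all probe sets.
Hspa1a: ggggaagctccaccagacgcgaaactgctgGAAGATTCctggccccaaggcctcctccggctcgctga

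The unfolded protein response of the endoplasmic reticulum gave 3 higher, 2 lower and 15 not called of 20 tested (25% called). The median of 0.02 turned sign in 4 settings. With the block the response gave 5 higher and 5 lower. Its main chaperone Hspa5 was at 11.72 and 11.62 in HA and 12.45 and 12.14 in PBAB (0.62, SE 0.16, adjusted p = 0.0261), and Sdf2l1, a partner of that chaperone, at 10.42 and 10.10 in HA and 9.60 and 9.17 in PBAB (-0.88, SE 0.20, adjusted p = 0.0151). Further genes of the unfolded protein response called were Pdia6 (0.58), Sel1l (0.95) and Dnajc3 (-0.59). By setting, calls were lost for Sel1l without HA 1, HA 2 or PBAB 1 (0.59 to 1.01, adjusted p 0.102 to 0.233), with the 4 Th1 arrays fitted alone (0.95, adjusted p = 0.0776), with arrays centred on their medians (0.89, adjusted p = 0.0676) and in its probe set with the largest variance (-0.0364, adjusted p = 0.952) and Dnajc3 without HA 2, PBAB 1 or PBAB 2 (-0.73 to -0.42, adjusted p 0.0612 to 0.291), with the 4 Th1 arrays fitted alone (-0.59, adjusted p = 0.149), after a further quantile normalization (-0.40, adjusted p = 0.12), as the mean of its probe sets (-0.76, adjusted p = 0.0562) and with an intensity trend (-0.59, adjusted p = 0.0539). Hspa5 lay a little higher and Sdf2l1 a little lower in PBAB. Without some arrays or settings, calls failed for Hspa5 without HA 1, HA 2 or PBAB 1 (0.47 to 0.67, adjusted p 0.0742 to 0.169), with the 4 Th1 arrays fitted alone (0.62, adjusted p = 0.101), with arrays centred on their medians (0.57, adjusted p = 0.0511) and in its probe set with the largest variance (0.67, adjusted p = 0.0584) and Sdf2l1 without HA 1 or PBAB 2 (-0.72 to -0.66, adjusted p 0.102 to 0.131) and with the 4 Th1 arrays fitted alone (-0.88, adjusted p = 0.062). Genes of the unfolded protein response called higher numbered 0 to 1 without HA 1, HA 2 or PBAB 1, 0 with the 4 Th1 arrays fitted alone, with arrays centred on their medians or with the probe sets of largest variance and 5 after a further quantile normalization, and those called lower 0 to 1 without HA 2, PBAB 1 or PBAB 2, 0 with the 4 Th1 arrays fitted alone and 1 after a further quantile normalization.

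**Figure D4:**
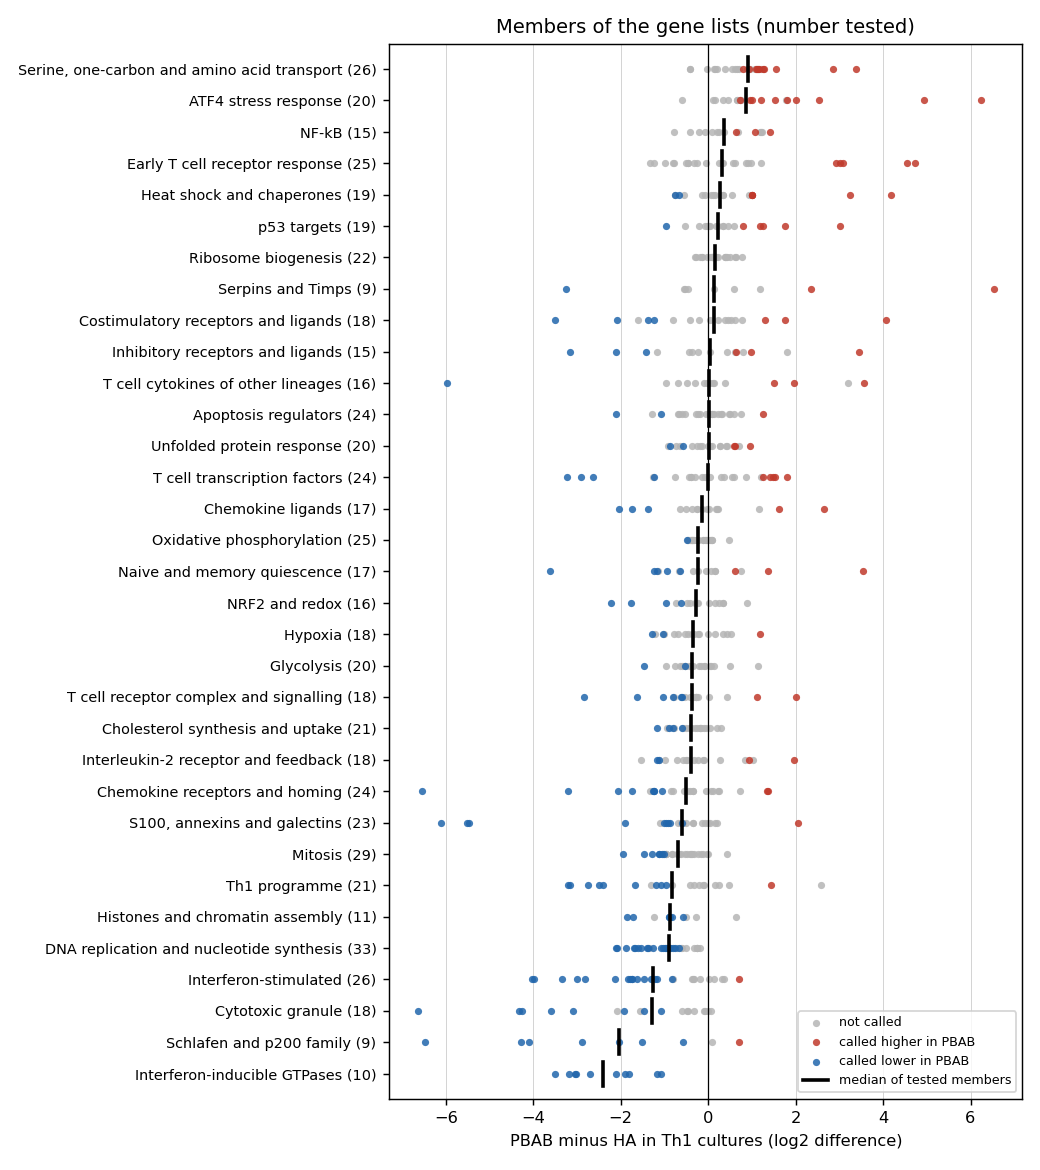
PBAB minus HA difference (log2) of each tested member of the 33 gene lists in Th1 cultures, 1 row per list with the number tested, ordered by the list median (black bar). Red and blue points are members called higher or lower in PBAB and grey points those not called. The interferon-inducible GTPases, with a median of -2.40, stand lowest, and the lists of amino acid genes and of ATF4 genes, with medians of 0.91 and 0.86, stand highest.

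Many genes of DNA synthesis were lower under antibody stimulation at day 4. Of 33 tested genes of DNA replication and nucleotide synthesis, 0 were higher, 19 lower and 14 not called (57.6% called), with a median of -0.90 and differences from -2.11 to -0.18. Rrm1 and Rrm2, the subunits of ribonucleotide reductase, which makes the building blocks of DNA, were at 10.87 and 11.04 in HA and 9.26 and 9.27 in PBAB (-1.69, SE 0.19, adjusted p = 0.000331) and at 11.79 and 12.05 in HA and 9.92 and 9.71 in PBAB (-2.11, SE 0.29, adjusted p = 0.00107). Cdt1, which licenses replication origins, was at 11.08 and 11.09 in HA and 9.77 and 9.60 in PBAB (-1.40, SE 0.18, adjusted p = 0.000762), and Pola1, the catalytic subunit of DNA polymerase alpha, at 8.73 and 8.68 in HA and 7.14 and 6.95 in PBAB (-1.66, SE 0.22, adjusted p = 0.000785). Replicates of a group lay close together, and all PBAB arrays were lower than all HA arrays. With the block 27 were lower. The E2F site TTTCCCGC, searched on both strands, occurred in 3 of 18 promoter windows of called members (16.7%) and in 13.3% of those not called, against 1.07% of all windows. DNA replication genes called lower numbered 8 to 11 without HA 1, HA 2 or PBAB 2.

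Of 29 tested mitotic genes, 0 were higher, 7 lower and 22 not called, with a median of -0.70, and 14 lower with the block. Birc5, survivin, a subunit of the chromosomal passenger complex, was at 11.23 and 11.85 in HA and 9.45 and 9.71 in PBAB (-1.96, SE 0.31, adjusted p = 0.0024), and the spindle motor Kif11 at 8.18 and 8.47 in HA and 7.27 and 7.16 in PBAB (-1.11, SE 0.20, adjusted p = 0.00401). The cyclin Ccna2 was at 10.90 and 10.90 in HA and 9.86 and 9.81 in PBAB (-1.06, SE 0.25, adjusted p = 0.0178), and the proliferation marker Mki67 at 11.34 and 11.18 in HA and 10.51 and 9.96 in PBAB (-1.02, SE 0.43, adjusted p = 0.157). Mki67 was not called, but it passed with the block (adjusted p = 0.028) and with the 4 Th1 arrays fitted alone (adjusted p = 0.0442). Another probe set of Kif11 gave -1.03 and no call (adjusted p = 0.0776), and the call of Ccna2 was lost without HA 1, HA 2, PBAB 1 or PBAB 2 (-1.09 to -1.03, adjusted p 0.0693 to 0.0938). The cell cycle homology region TTTGAA occurred in 4 of 5 windows of called mitotic genes and 77.3% of 22 windows of those not called, against 17.9% of all windows. Mitotic genes called lower numbered 2 to 3 without HA 1, HA 2, PBAB 1 or PBAB 2 and 12 with the 4 Th1 arrays fitted alone.

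Of 11 tested genes of histones and chromatin assembly, 0 were higher, 7 lower and 4 not called, with a median of -0.88. Chaf1b, a subunit of the factor that loads histones on new DNA, was at 8.29 and 8.29 in HA and 6.57 and 6.55 in PBAB (-1.73, SE 0.20, adjusted p = 0.000372), and the histone chaperone Asf1b at 10.57 and 10.88 in HA and 8.80 and 8.95 in PBAB (-1.85, SE 0.26, adjusted p = 0.00132). Both were lower in both PBAB arrays. Histone and assembly genes called higher numbered 1 with the block, and those called lower 2 to 4 without HA 1, HA 2, PBAB 1 or PBAB 2 and 4 with the 4 Th1 arrays fitted alone or after a further quantile normalization.

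Few genes of energy metabolism were called. Glycolysis gave 0 higher and 2 lower of 20 tested (median -0.37; 0 and 5 with the block). Oxidative phosphorylation gave 0 higher and 1 lower of 25 tested (median -0.24; 1 and 6 with the block). Cholesterol synthesis gave 0 higher and 4 lower of 21 tested (median -0.38; 0 and 5 with the block). The hypoxia list gave 1 higher and 2 lower of 18 tested (median -0.35; 1 and 4 with the block). All shares but that of cholesterol synthesis lay near the 14.6% of all genes or below it. Ldha, lactate dehydrogenase, was at 13.60 and 13.62 in HA and 13.09 and 13.05 in PBAB (-0.54, SE 0.14, adjusted p = 0.0281), the lactate exporter Slc16a3 at 9.29 and 8.37 in HA and 7.43 and 7.31 in PBAB (-1.46, SE 0.43, adjusted p = 0.0471), and Ebp, a sterol isomerase, at 10.82 and 11.16 in HA and 10.01 and 10.16 in PBAB (-0.90, SE 0.19, adjusted p = 0.0102). Pdk1, which keeps pyruvate out of mitochondria, was at 9.87 and 9.79 in HA and 8.58 and 8.51 in PBAB (-1.28, SE 0.26, adjusted p = 0.00814). All were lower in PBAB, and calls were lost for Ldha without HA 1, HA 2, PBAB 1 or PBAB 2 (-0.56 to -0.51, adjusted p 0.0988 to 0.141) and with the 4 Th1 arrays fitted alone (-0.54, adjusted p = 0.109), Slc16a3 without HA 1, PBAB 1 or PBAB 2 (-1.52 to -1.001, adjusted p 0.128 to 0.266) and with no filter (-1.46, adjusted p = 0.0508), Ebp without HA 2 or PBAB 1 (-0.83 to -0.73, adjusted p 0.0699 to 0.0921) and Pdk1 without PBAB 2 (-1.24, adjusted p = 0.0554), as the mean of its probe sets (-0.51, adjusted p = 0.151) and in its probe set with the largest variance (-0.65, adjusted p = 0.218). Another of the genes of oxidative phosphorylation called was Uqcrfs1 (-0.48). A call was not kept by Uqcrfs1 without HA 1, HA 2, PBAB 1 or PBAB 2 (-0.55 to -0.40, adjusted p 0.0967 to 0.254), with the 4 Th1 arrays fitted alone (-0.48, adjusted p = 0.156) and in its probe set with the largest variance (-0.48, adjusted p = 0.0513). Further cholesterol genes called were Mvk (-1.18), Nsdhl (-0.80) and Sc5d (-0.59). The test no longer passed for Mvk without HA 1 or PBAB 2 (-1.01, adjusted p 0.107 to 0.128), Nsdhl without HA 1, HA 2, PBAB 1 or PBAB 2 (-0.96 to -0.63, adjusted p 0.0553 to 0.179) and with the 4 Th1 arrays fitted alone (-0.80, adjusted p = 0.054) and Sc5d without HA 1, HA 2, PBAB 1 or PBAB 2 (-0.70 to -0.47, adjusted p 0.0575 to 0.219), with the 4 Th1 arrays fitted alone (-0.59, adjusted p = 0.105), after a further quantile normalization (-0.43, adjusted p = 0.112) and as the mean of its probe sets (-0.09, adjusted p = 0.698). Further hypoxia genes called were Ddit4 (1.19) and Egln1 (-1.04). Calls failed for Ddit4 without HA 2, PBAB 1 or PBAB 2 (0.70 to 1.39, adjusted p 0.0907 to 0.302), with the 4 Th1 arrays fitted alone (1.19, adjusted p = 0.0836) and with arrays centred on their medians (1.13, adjusted p = 0.0649) and Egln1 without HA 1, HA 2, PBAB 1 or PBAB 2 (-1.07 to -1.02, adjusted p 0.132 to 0.145) and after a further quantile normalization (-0.84, adjusted p = 0.0506). Ribosome biogenesis had no call among 22 tested genes, and 5 higher with the block. Glycolysis genes called higher numbered 1 after a further quantile normalization, and those called lower 0 to 1 without HA 1, HA 2, PBAB 1 or PBAB 2 and 1 with the 4 Th1 arrays fitted alone or with no filter. Genes of oxidative phosphorylation called higher numbered 1 with means of all probe sets, and those called lower 0 without HA 1, HA 2, PBAB 1 or PBAB 2, 0 with the 4 Th1 arrays fitted alone or with the probe sets of largest variance and 3 with an intensity trend. Cholesterol genes called lower numbered 1 without HA 1, HA 2, PBAB 1 or PBAB 2 and 2 with the 4 Th1 arrays fitted alone. Hypoxia genes called higher numbered 0 to 2 without HA 1, HA 2, PBAB 1 or PBAB 2 and 0 with the 4 Th1 arrays fitted alone or with arrays centred on their medians, and those called lower 1 without HA 1, HA 2, PBAB 1 or PBAB 2 and 1 after a further quantile normalization. Ribosome biogenesis genes called higher numbered 1 after a further quantile normalization, with means of all probe sets, with the probe sets of largest variance or with an intensity trend.

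Targets of p53 gave 5 higher and 1 lower of 19 tested (31.6% called, median 0.22, with 7 and 1 under the block). Apoptosis regulators gave 1 higher and 2 lower of 24 tested (12.5% called, median 0.02, with 3 and 5 under the block). NRF2 and redox genes gave 0 higher and 4 lower of 16 tested (25% called, median -0.27, with 1 and 5 under the block). Over all genes tested 14.6% were called, and the apoptosis share lay near that. Perp, a membrane target of p53, was at 7.47 and 7.24 in HA and 10.33 and 10.41 in PBAB, a difference of 3.01 (SE 0.16, adjusted p = 5.24e-06) or 8.08-fold, and Bbc3, the death factor Puma, at 7.31 and 7.23 in HA and 8.72 and 8.33 in PBAB (1.26, SE 0.23, adjusted p = 0.00519). Casp1, the caspase of the inflammasome, was at 9.55 and 10.36 in HA and 7.55 and 8.12 in PBAB (-2.12, SE 0.38, adjusted p = 0.00469). Perp and Bbc3 were higher and Casp1 lower in PBAB, without overlap. Further p53 targets called were Plk2 (1.75), Aen (0.80), Ddit4 (1.19) and Sesn1 (-0.97). Under other settings the call was lost for Plk2 without HA 2, PBAB 1 or PBAB 2 (1.07 to 1.84, adjusted p 0.0754 to 0.139), Aen without HA 2, PBAB 1 or PBAB 2 (0.62 to 0.87, adjusted p 0.0642 to 0.156), with the 4 Th1 arrays fitted alone (0.80, adjusted p = 0.0568), as the mean of its probe sets (0.50, adjusted p = 0.104) and in its probe set with the largest variance (0.68, adjusted p = 0.111) and Ddit4 without HA 2, PBAB 1 or PBAB 2 (0.70 to 1.39, adjusted p 0.0907 to 0.302), with the 4 Th1 arrays fitted alone (1.19, adjusted p = 0.0836) and with arrays centred on their medians (1.13, adjusted p = 0.0649). Further redox genes called were Nqo1 (-0.97) and Gclc (-0.62). Lost calls here were those of Nqo1 without HA 1 or PBAB 2 (-0.89 to -0.84, adjusted p 0.054 to 0.0761) and Gclc without HA 1, HA 2, PBAB 1 or PBAB 2 (-0.75 to -0.50, adjusted p 0.0611 to 0.231), with the 4 Th1 arrays fitted alone (-0.62, adjusted p = 0.0999) and after a further quantile normalization (-0.41, adjusted p = 0.112). Gsr, glutathione reductase, was at 10.46 and 10.25 in HA and 8.25 and 8.01 in PBAB, a difference of -2.22 (SE 0.20, adjusted p = 8.19e-05) or 4.67-fold, and Txnip, an inhibitor of thioredoxin and of glucose uptake, at 10.43 and 11.38 in HA and 9.42 and 8.86 in PBAB (-1.77, SE 0.33, adjusted p = 0.00589). The median of the apoptosis list turned sign in 5 settings. Gsr and Txnip were lower in PBAB, and the call of Txnip was lost without HA 2 or PBAB 2 (-1.48 to -1.29, adjusted p 0.0508 to 0.0567). P53 targets called higher numbered 2 without HA 2, PBAB 1 or PBAB 2 and 3 with the 4 Th1 arrays fitted alone, and those called lower 0 without HA 2, PBAB 1 or PBAB 2 and 0 with the 4 Th1 arrays fitted alone, after a further quantile normalization, with means of all probe sets or with the probe sets of largest variance. Apoptosis genes called higher numbered 2 with the probe sets of largest variance, and those called lower 1 without HA 2 or PBAB 2 and 1 after a further quantile normalization or with no filter. Redox genes called lower numbered 1 to 2 without HA 1, HA 2 or PBAB 2.

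HA cultures had started with irradiated splenocytes and PBAB cultures had not, so markers of other cells were measured in both. Of 26 tested macrophage and monocyte markers, 1 was higher, 3 lower and 22 not called (15.4% called, near the 14.6% of all genes). Their mean log2 value was 5.70 and 5.73 in HA, 5.40 and 5.72 in PBAB and 9.60 on the APC alone array. Lyz1, a lysozyme of phagocytes, was at 7.22 and 6.29 in HA and 3.62 and 3.95 in PBAB (-2.97, SE 0.50, adjusted p = 0.00307), and on the APC alone array at 14.07. Fcgr3, an Fc receptor, was at 5.79 and 6.89 in HA and 5.06 and 4.94 in PBAB (-1.34, SE 0.35, adjusted p = 0.0273), and Cd68, a macrophage lysosomal protein, at 7.23 and 6.09 in HA and 8.53 and 8.91 in PBAB (2.06, SE 0.39, adjusted p = 0.0058). Lyz1 and Fcgr3 were thus lower in PBAB, with PBAB means below the threshold, and Cd68 was higher. The macrophage genes C1qa (-0.06), Adgre1 (-0.06) and Csf1r (0.74) were not called. Calls were lost for Fcgr3 without HA 2, PBAB 1 or PBAB 2 (-1.40 to -0.79, adjusted p 0.091 to 0.198) and with the 4 Th1 arrays fitted alone (-1.34, adjusted p = 0.0647) and Cd68 without PBAB 2 (1.87, adjusted p = 0.05). Macrophage markers called higher numbered 0 without PBAB 2, 3 with the block and 2 after a further quantile normalization, with means of all probe sets or with an intensity trend, and those called lower 1 without PBAB 1 and 1 with the 4 Th1 arrays fitted alone.

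No tested marker of dendritic cells (10), alternatively activated macrophages (6) or erythroid cells and platelets (7) was called. For MHC class II the counts were 1 higher, 0 lower and 7 not called of 8, for B cell markers 2 higher, 1 lower and 12 not called of 15, and for neutrophils and mast cells 0 higher, 1 lower and 10 not called of 11. The called shares were 12.5%, 20% and 9.09% in that order, against 14.6% of all genes. Ighm, the immunoglobulin heavy chain, was at 10.19 and 10.15 in HA and 8.93 and 9.03 in PBAB (-1.19, SE 0.23, adjusted p = 0.00684), whereas the mean of its 11 probe sets gave -0.05 (adjusted p = 0.883). Another of the MHC class II genes called was H2-Eb1 (0.61). By setting, calls were lost for H2-Eb1 without HA 1, HA 2, PBAB 1 or PBAB 2 (0.51 to 0.71, adjusted p 0.0727 to 0.207) and with the 4 Th1 arrays fitted alone (0.61, adjusted p = 0.0897). Further B cell markers called were Ms4a1 (0.81) and Ebf1 (0.96). A call was not kept by Ms4a1 without HA 1, PBAB 1 or PBAB 2 (0.65 to 0.86, adjusted p 0.0721 to 0.134) and with the 4 Th1 arrays fitted alone (0.81, adjusted p = 0.0515) and Ebf1 without HA 2 or PBAB 1 (0.70 to 0.82, adjusted p 0.113 to 0.116) and with the 4 Th1 arrays fitted alone (0.96, adjusted p = 0.0532). Another of the markers of neutrophils and mast cells called was Cxcr2 (-1.05). The test no longer passed for Cxcr2 without HA 1, PBAB 1 or PBAB 2 (-1.17 to -0.60, adjusted p 0.0768 to 0.17) and with the 4 Th1 arrays fitted alone (-1.05, adjusted p = 0.0891). Mean log2 values of the B cell list were 5.29 and 5.36 in HA, 5.35 and 5.41 in PBAB and 6.55 on the APC alone array. A gene called lower in PBAB was marked when the APC alone array lay at least 1 log2 unit above both PBAB arrays, since RNA of splenocytes could then add to its HA signal. This held for 122 of the 1457 genes (8.37%), and in 63 of them (4.32%) the APC alone array also exceeded both HA arrays. Over all genes tested, 3832 (24.7%) had the APC alone array that far above both PBAB arrays. Of the genes named above, Anxa1, Ccr1, Cd86, Cxcr3, Esm1, Ffar2, Gzmk, Ifi202b, Ifi209, Isg20, Klf2, Maf, P2ry14 and Trgv4 were marked, and in Ccl6, Cd200r1, Fcgr3, Lgals3, Lyz1 and Nqo1 the APC alone array exceeded both HA arrays too. The part of splenocyte RNA in these differences was not tested. The APC alone array had its own scale, with a median of 5.93 and an interquartile range of 2.02. On the 4 Th1 arrays these were 5.45 to 5.54 and 3.02 to 3.46. Among marked genes, P2ry14 (5.20), Esm1 (5.22) and Ifi202b (5.82) lay below that array's median on it, and Anxa1 (7.78) above. The part of the scale in the marks was not tested. MHC class II genes called higher numbered 0 without HA 2, PBAB 1 or PBAB 2, 2 with the block and 0 with the 4 Th1 arrays fitted alone. B cell markers called higher numbered 0 to 1 without HA 1, HA 2, PBAB 1 or PBAB 2, 0 with the 4 Th1 arrays fitted alone and 1 with a filter at the 60th percentile or with means of all probe sets, and those called lower 2 without HA 1 and 0 with means of all probe sets. Markers of neutrophils and mast cells called lower numbered 0 without HA 1, PBAB 1 or PBAB 2 and 0 with the 4 Th1 arrays fitted alone or with a filter at the 60th percentile.

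Some of the differences were larger in Th1 cultures than in Th9 and Th17 cultures activated in the same ways, which share no arrays with them. Th9 cultures were polarised with IL-4 and TGF-beta and received HEL at 1 µg/ml, and Th17 cultures with TGF-beta, IL-6 and IL-1alpha plus antibodies against IFN-gamma, IL-4 and IL-12, with HEL at 2 µg/ml. Of the 2266 genes called in Th1 cultures, 1778 had a difference of the same sign in both other cultures. That share was not counted over all genes tested, so no agreement between lineages is read from it. The Th1 difference itself departed from the mean of the other differences in 388 genes (2.50%), being more positive in 112 and more negative in 276. Of these, 264 were also among the 2266. With the replicate block 1256 genes departed, and without HA 2, PBAB 1 or PBAB 2 the count was 231, 173 or 160.

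The Il10 difference of -5.97 in Th1 cultures stood against -2.73 in Th9 and 0.76 in Th17 cultures, a departure of -4.98 (SE 0.75, adjusted p = 0.00751). For Maf, -3.22 stood against -0.09 in Th9 and 1.21 in Th17 cultures, a departure of -3.78 (SE 0.32, adjusted p = 0.000671). For both genes the Th17 difference had the opposite sign. The granzyme gene Gzmk, at -3.59, had 0.26 in Th9 and -0.21 in Th17 cultures, a departure of -3.62 (SE 0.32, adjusted p = 0.000671). Gzma, at -6.64, had -3.11 in Th9 and -3.51 in Th17 cultures. Its departure of -3.33 (SE 1.12, adjusted p = 0.193) did not pass, but with the replicate block it did (adjusted p = 0.0147). Ffar2, at -5.19, had -1.51 in Th9 and -0.48 in Th17 cultures, a departure of -4.19 (SE 0.21, adjusted p = 2.42e-05), and Ifi202b, at -4.29, had -0.11 in Th9 and -0.57 in Th17 cultures, a departure of -3.95 (SE 0.24, adjusted p = 8.36e-05). The receptor Ifngr1, at -2.41, had -0.26 in Th9 and -0.31 in Th17 cultures, a departure of -2.12 (SE 0.26, adjusted p = 0.0031). In each of these genes except Gzma, the difference was more negative in Th1 cultures by that test. Signal levels in Th9 and Th17 cultures are not given here. A small difference there can also come from a gene with low signal in both groups, which was not tested.

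Among increases, Cd70, at 4.08, had 0.35 in Th9 and -0.30 in Th17 cultures, a departure of 4.05 (SE 0.29, adjusted p = 0.000201). Il2, at 1.96, had 0.05 in Th9 and -3.03 in Th17 cultures, a departure of 3.46 (SE 0.34, adjusted p = 0.000834), and Ccl3, at 2.65, had 1.32 in Th9 and -2.97 in Th17 cultures, a departure of 3.48 (SE 0.49, adjusted p = 0.00606). Il2 and Ccl3 were thus higher in PBAB in Th1 cultures and lower in Th17 cultures. Timp1, at 6.53, had 1.71 in Th9 and 3.82 in Th17 cultures, a departure of 3.77 (SE 0.68, adjusted p = 0.0164). For the stress genes, Cth had 4.33 in Th9 and 3.24 in Th17 cultures and Hspa1b had 3.48 in Th9 and 5.82 in Th17 cultures, and their departures of 2.46 (SE 0.65, adjusted p = 0.0912) and -0.47 (SE 0.33, adjusted p = 0.652) did not pass, though that of Cth did with the block (adjusted p = 0.0152). Nor did those of the GTPase genes Gbp8 (0.43, SE 0.44, adjusted p = 0.783) and Gbp7 (-1.02, SE 0.56, adjusted p = 0.519). A departure that misses the threshold does not show that the cultures respond alike.

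**Figure D5:**
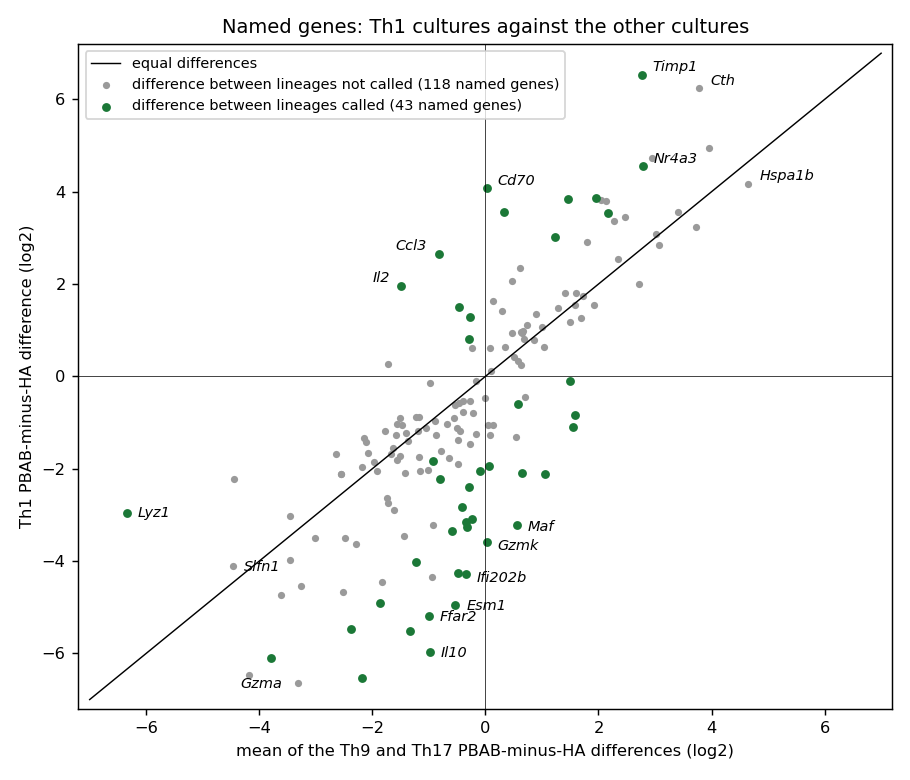
PBAB minus HA difference in Th1 cultures (vertical axis, log2) against the mean of the differences in Th9 and Th17 cultures (horizontal axis, log2) for the 161 named genes. Points on the diagonal have equal differences, and green points are the 43 genes whose Th1 difference departed from that mean at an adjusted p under 0.05. Maf, Gzmk and Ifi202b lie far below the diagonal near a mean of 0 elsewhere, and Cd70, Il2 and Ccl3 lie above it.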

How the data were processed

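RNA of 15 mouse T helper cell cultures was measured on Affymetrix arrays. The deposited values are log2 intensities of 45101 probe sets made by RMA, per the submitters' processing notes; its version and settings are not given in the sources used here. Gene symbols came from a platform annotation of 2016: 34958 probe sets had 1 symbol, 932 several and 9211 none, and the last 2 kinds were left out. Where a gene had several, the one with the highest mean (15 arrays) was taken, giving 18194 genes. Genes reaching the 40th percentile of the table (5.07) on at least 2 arrays were tested (15498).

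A group-means model was fitted to all 15 arrays with limma 3.58.1 (R 4.3.3; 6 residual degrees of freedom), and p-values were adjusted by the Benjamini-Hochberg method over all genes tested. The Th1 difference was also tested against the mean of the Th9 and Th17 differences. The model had no replicate block. Same-numbered arrays deviated together in all 15 pairs of groups (correlations 0.296 to 0.708, 0.508 between the Th1 groups). The main calls do not take this into account. The labels state no pairing, and what the replicate number stands for was not tested. The BioB control signal was 9.55 and 10.62 in HA and 9.52 and 11.05 in PBAB, lower on replicate 1 in both. Blocked values are given where they change the call of a gene named by the rule below, and not for every other gene in the text.

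Genes were named by rule: the 15 largest calls in each direction whose groups do not overlap, up to 4 called members of each list, and a short set of Th1, receptor and lineage genes given whatever their result. The members and lists were chosen with earlier results of these data known. Other normalizations, filters, probe set choices, model settings and leaving out each array were tried. Array precision is limited by their number. Promoter windows came from RefSeq (GRCm38.p6), and figures were drawn with matplotlib 3.10.9 (Python 3.11.15).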

Additional observations from a re-analysis of the deposited data

Results flagged for a closer look

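Of the 161 genes named by the rule, 43 had a PBAB minus HA difference in Th1 cultures that departed from the mean of the Th9 and Th17 differences in the limma fit (adjusted p under 0.05 over all 15498 genes), and no other kind of result stood out, since groups of 2 arrays cannot be searched for a far-off sample. Over all genes tested, 388 (2.50%) departed. Most of the 161 were picked by their Th1 difference, which is part of the departure, so the rule itself favoured departures among them. Each gene is given with its departure on the log2 scale and, in parentheses, the differences in Th1, Th9 and Th17 cultures in that order. Some cytokines, chemokines and TNF family members were more positive in Th1 cultures than that mean, though not Il10, Cxcl11 and Fasl, given below: Il3 at 3.23 (from 3.56, 0.66 and -0.00066), Il2 at 3.46 (from 1.96, 0.05 and -3.03), Tnfsf11 at 1.98 (from 1.51, 0.25 and -1.20), Tnfsf8 at 1.56 (from 1.29, 0.56 and -1.09), Cd70 at 4.05 (from 4.08, 0.35 and -0.30) and Ccl3 at 3.48 (from 2.65, 1.32 and -2.97), with adjusted p 0.000201 to 0.0169. So were Timp1, which inhibits matrix proteases, the receptor-induced Nr4a3, the G protein brake Rgs2, the retinoic acid carrier Crabp2, the naive T cell gene Dapl1 and the p53 target Perp: Timp1 at 3.77 (from 6.53, 1.71 and 3.82), Nr4a3 at 1.77 (from 4.55, 4.09 and 1.47), Rgs2 at 1.91 (from 3.86, 2.41 and 1.49), Crabp2 at 2.39 (from 3.85, 2.96 and -0.04), Dapl1 at 1.38 (from 3.55, 4.39 and -0.06) and Perp at 1.78 (from 3.01, 1.74 and 0.74), with adjusted p 0.0016 to 0.0314. The difference of Dapl1 was above that mean but below the Th9 difference.

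Il10 and its known regulator Maf, and receptors of Th1 and effector cells, were more negative in Th1 cultures: Il10 at -4.98 (from -5.97, -2.73 and 0.76), Maf at -3.78 (from -3.22, -0.09 and 1.21), Ifngr1 at -2.12 (from -2.41, -0.26 and -0.31), Havcr2 at -2.83 (from -3.16, -0.69 and 0.01), Cxcr6 at -4.36 (from -6.54, -3.58 and -0.78), Entpd1 at -3.17 (from -2.11, 0.03 and 2.09) and Slamf7 at -2.73 (from -2.09, 0.99 and 0.30), with adjusted p 0.000671 to 0.0164. The receptor chains Il12rb2 and Il2ra departed although neither was called within Th1 cultures without the block and by the probe set used: Il12rb2 at -2.40 (from -0.83, 2.45 and 0.70) and Il2ra at -1.60 (from -0.09, 1.42 and 1.58), with adjusted p 0.0108 to 0.0239. Within Th1 cultures Il12rb2 was called with the block (adjusted p = 0.0377), and Il2ra by another probe set (-2.09, adjusted p = 0.0256). Cytotoxic genes and a protease inhibitor were more negative: Gzmk at -3.62 (from -3.59, 0.26 and -0.21), Gzme at -2.86 (from -3.09, -0.48 and 0.01), Gzmg at -3.78 (from -4.27, -1.33 and 0.35), Prf1 at -1.99 (from -1.93, 0.52 and -0.41), Fasl at -2.63 (from -1.09, 2.34 and 0.75) and Serpinb1a at -2.93 (from -3.25, -0.76 and 0.11), with adjusted p 0.000671 to 0.0176. Interferon-induced genes were more negative as well: Usp18 at -2.75 (from -3.35, -0.05 and -1.14), Isg20 at -2.79 (from -4.02, -2.03 and -0.42), Oas3 at -0.91 (from -1.83, -0.98 and -0.86), Ifi202b at -3.95 (from -4.29, -0.11 and -0.57) and Cxcl11 at -1.96 (from -2.05, 0.04 and -0.22), with adjusted p 8.36e-05 to 0.0453.

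Calcium-binding proteins of effector cells departed in the same direction: S100a6 at -2.30 (from -6.10, -5.30 and -2.30), S100a4 at -3.10 (from -5.47, -1.62 and -3.12) and Anxa1 at -4.18 (from -5.52, -1.28 and -1.41), with adjusted p 0.000759 to 0.0176. Further genes that were more negative in Th1 cultures included receptors, a kinase, secreted factors and metabolic enzymes: Ffar2 at -4.19 (from -5.19, -1.51 and -0.48), P2ry14 at -3.03 (from -4.90, -1.88 and -1.86), Esm1 at -4.42 (from -4.95, -1.34 and 0.28), Txk at -2.42 (from -2.84, -0.85 and 0.02), Gsr at -1.43 (from -2.22, -0.997 and -0.60) and Sc5d at -1.16 (from -0.59, 0.17 and 0.98), with adjusted p 2.42e-05 to 0.0139. Markers of other cells that departed were a phagocyte lysozyme and a B cell surface protein: Lyz1 at 3.37 (from -2.97, -5.52 and -7.15) and Ms4a1 at 1.10 (from 0.81, -0.09 and -0.49), with adjusted p 0.0168 to 0.0424. Lyz1 was lower in PBAB in all 3 cultures and least so in Th1 cultures, and its APC alone signal in the Th1 part of the experiment was 14.07. In 7 of the 43 genes the Th1 difference had the opposite sign to both others. With the replicate block all 43 passed and so did 30 further named genes (adjusted p 0.00252 to 0.04995), of which Cth, Cd83, Plagl1, Cd200, Il18r1, Serpinb6b, Ccl4, Nfkbib, H2-Eb1, Trgv4 and Ifng were more positive in Th1 cultures and Gzma, Ifi209, Samd9l, Ifitm1, Gzmd, Il18rap, Id2, Cxcr3, Cd5, Klf2, Slfn8, Lgals3, Pdk1, Egln1, Ccr2, Cd8b1, Cxcr2, Tbx21 and Myc more negative. Cultures of the different lineages also differed in antigen dose and cytokines, and the part of these in the departures was not tested. Nor was the part of low signal of a gene in Th9 or Th17 cultures, whose levels are not given here.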

How the results depend on the processing

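With the replicate number as a block, 4380 genes were called in Th1 cultures (1679 higher, 2701 lower) and 1256 for the departure from Th9 and Th17 cultures (368 more positive, 888 more negative). With the block set within each lineage the counts were 4196 (1633 higher, 2563 lower) and 1038 (331 more positive, 707 more negative). All 2266 calls remained called with the block, so besides adding calls it changed no other call. Fitting the 4 Th1 arrays alone called 528 genes higher, and that fit could not give the departure. Leaving out 1 of the 4 arrays gave 1078 to 1602 calls (325 to 594 higher, 685 to 1008 lower), with the lone array assumed to vary like the other groups, and 160 to 275 departures (51 to 80 more positive, 104 to 195 more negative). The number of lower genes marked for high APC alone signal was 373 with no margin and 13 with a margin of 2 log2 units, in place of 122. Of the 144 called genes named by the rule, 114 kept their direction and their call under all 12 alternatives other than leaving out an array, 97 kept them without each array, and 47 lost the call without at least 1. The one gene whose direction turned was Sel1l, at -0.036 in its probe set with the largest variance. In the counts of kept calls, a gene not tested under a setting was taken as unchanged. With a filter at the 60th percentile 141 of the 144 were tested, and with means of all probe sets 143. The fit of the activated arrays only gave the same count of 2266 calls as the main fit.

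With 2 arrays a group, precision rests on the spread pooled over all groups. No background or detection values were used, so a signal under 5.07 cannot be told from no expression. The analysis sees RNA of mixed cultures on 1 day, and the presence of splenocytes and the kind of stimulus cannot be told apart. Th1 cultures had 1 APC alone array, so its values carry no replicate error.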
